A study of Mus musculus with 18 samples.

Results

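The livers described here came from wild-type (WT) C57BL/6J mice that had been fed ethanol (EtOH) or a control diet in the chronic-plus-binge model, a mouse model of alcohol-associated liver disease. The members were taken by sample label: 5 EtOH-fed WT mice and 4 pair-fed WT mice, 9 of the 18 mice of the series. The other 9 mice carried an *Apoe* knockout (KO) and were used here only where the WT response was compared with theirs. Per the labels all mice were female. The study's methods mention mice of either sex. The mice were 10 to 12 weeks old and had all been acclimated for 5 days to a Lieber-DeCarli liquid diet. The EtOH-fed mice then received the same kind of diet containing 5% (v/v) ethanol over 10 days, and on day 11 a single oral dose of 5 g/kg ethanol. The pair-fed mice received an isocaloric diet without ethanol for 10 days and an oral dose of 9 g/kg dextrin-maltose. Liver was taken 9 hours after the dose in both groups, so the comparison holds the effects of the long feeding, of the last dose, and of the sugar given to the controls together. PolyA-selected RNA from whole liver was sequenced.

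Hepatocytes oxidize ethanol to acetaldehyde through alcohol dehydrogenases, the cytochrome P450 CYP2E1 and catalase, and acetaldehyde to acetate through aldehyde dehydrogenases. These steps change the redox state of the cell, produce oxidants and reactive aldehydes, and compete with the oxidation of fatty acids. Steatosis, endoplasmic reticulum stress, antioxidant gene induction, disturbed methionine metabolism and recruitment of leukocytes are well known features of alcohol-associated liver disease.

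Expression values were whole numbers with nearly the same total in each mouse. How they were scaled is not given in the sources used here. From their totals and spacing they were read as read counts divided by a factor per mouse, and are called scaled reads here. Among the 15052 genes tested in the 9 WT mice, each total lay between 32267840 and 32292618, so the totals no longer show how deeply a mouse was sequenced. The spacing of the low values gave a depth for 7 of the 9 mice, with estimated totals of 5.60 M, 10.6 M, 29.1 M and 19.2 M reads in pair-fed mice 1 to 4 and 52.2 M, 39.5 M and 24.6 M in EtOH-fed mice 1, 3 and 4. Depth therefore moved with diet, and its part in the results was not tested beyond the alternative fit on estimated reads given in the closing section. Pair-fed mouse 1 had 258 genes at 0 against 2 to 17 in the EtOH-fed mice. When principal components were taken of the 500 genes with the highest variance, the first held 49.2% of the variance and set pair-fed mouse 1 (score -64.7) far from every other mouse. Among genes with a mean of at least 100 scaled reads the first component held 60.5% of the variance, pair-fed mouse 1 no longer stood apart, and the 4 pair-fed mice (-18.7 to -15.5) were separated from the 5 EtOH-fed mice (8.52 to 19.6). *Apoe*, the gene deleted in the other genotype, was between 611230 and 798431 scaled reads in all 9 WT mice and between 8586 and 108651 in the 9 KO mice. Per gene values below are scaled reads in the order of the mouse numbers, first pair-fed mice 1 to 4 and then EtOH-fed mice 1 to 5.

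**Figure D1:**
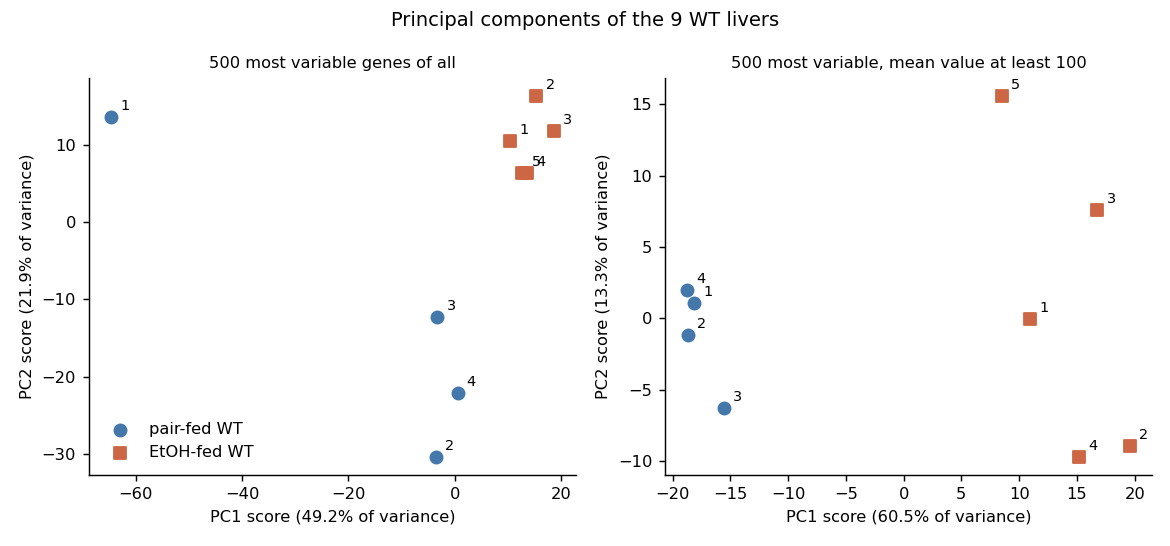
Principal component scores of the 9 WT livers on log2(value + 1), with the share of variance on each axis and the mouse number beside each point. On the left (500 most variable genes of all) pair-fed mouse 1 lies at -64.7 on the first component, and on the right (500 most variable genes with a mean of at least 100) the 4 pair-fed mice lie between -18.7 and -15.5 and the 5 EtOH-fed mice between 8.52 and 19.6.

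Ethanol feeding changed the expression of 1912 of 15052 genes (12.7%) at an adjusted p under 0.05 in limma, with 931 genes (6.19%) higher and 981 genes (6.52%) lower in EtOH-fed than in pair-fed WT liver. A log2 fold change beyond 1 was seen for 191 of the genes that rose and 359 of those that fell, and one beyond 2 for 38 and 71. All 5 EtOH-fed values lay above all 4 pair-fed values for 1118 genes (7.43%) and below them for 1047 genes (6.96%). The median log2 fold change of all genes was -0.01. Without pair-fed mouse 1, which stood apart, 786 genes were higher and 776 lower. The counts were most reduced without pair-fed mouse 2 (591 higher, 595 lower) or pair-fed mouse 4 (600 higher, 631 lower), and no gene called with all mice changed direction in any of these fits. The percentage of genes called grew with the mean level, from 4.48% of genes under 50 scaled reads to 23.6% of genes at 5000 or more. The direction differed by level too, with 20 genes higher and 99 lower under 50 scaled reads, 267 and 386 from 50 to 500, 544 and 386 from 500 to 5000, and 100 and 110 from 5000. Since depth differed between the diets, the lean of the lowest genes to lower values cannot be told apart from depth. Fold changes below are EtOH-fed minus pair-fed on log2(value + 1), given ± SE with n = 5 and 4 mice, and adjusted p values are from limma with Benjamini-Hochberg adjustment over all 15052 genes. Because the labels do not describe how the mice were housed or how libraries were grouped, p values measure the spread between these mice. The 44 gene lists used to order the results are described by counts and medians, beside the 6.19% and 6.52% over all genes. These shares over all genes are not matched for level. In either direction, 23.6% of genes at 5000 scaled reads or more were called. A list of highly expressed genes can therefore exceed the shares over all genes without differing from genes of like level. Whether any list differed from genes of like level was not tested.

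**Figure D2:**
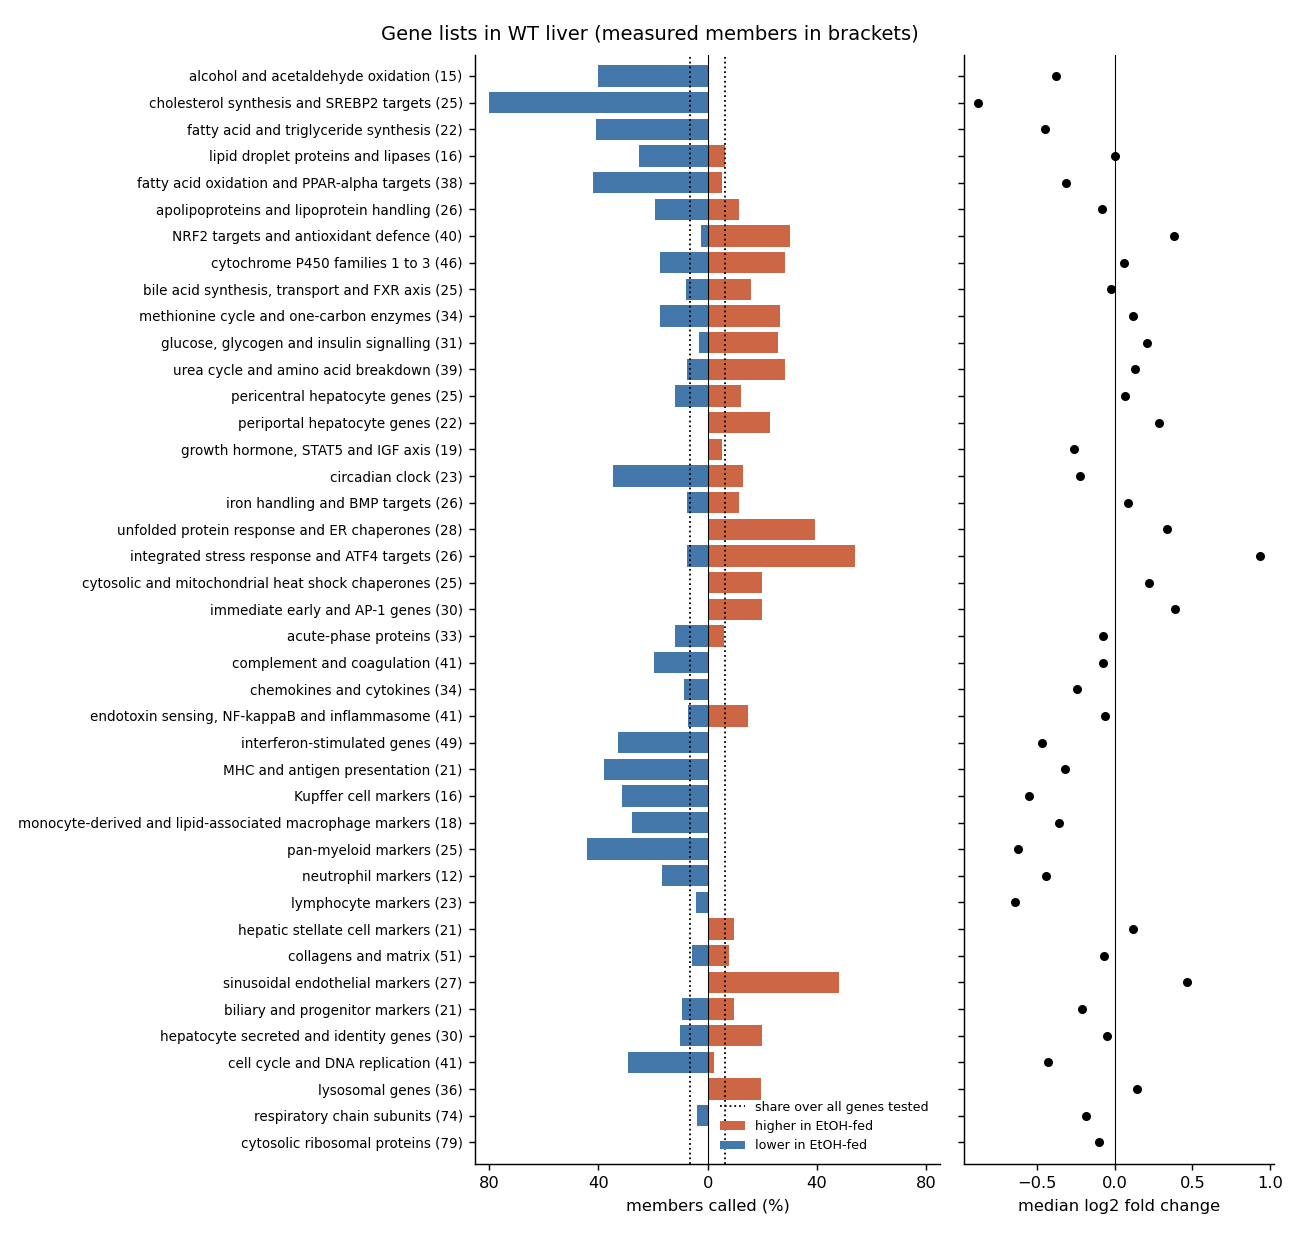
Share of measured members of the gene lists called higher (right) or lower (left) in EtOH-fed WT liver, beside the median log2 fold change of each list. Dotted lines mark the shares over all genes tested (6.19% and 6.52%), and the longest bars are cholesterol synthesis (20 of 25 genes lower) and the integrated stress response (14 of 26 genes higher).

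The list with the largest share of genes higher was the integrated stress response, the program in which phosphorylation of a translation initiation factor favours production of the transcription factor ATF4 and its targets. Of 26 measured genes, 14 rose and 2 fell, the last a share like that of all genes, with a median log2 fold change of 0.93. *Trib3*, a pseudokinase that dampens AKT signalling and ATF4 itself (chromosome 2, 152337422 to 152344032 in GRCm38, minus strand), was at 150, 131, 136 and 116 in the pair-fed mice and 1024, 3924, 5451, 3506 and 2119 in the EtOH-fed mice, a log2 fold change of 4.37 ± 0.36 (adjusted p = 1.39e-05). *Atf3*, a stress-induced bZIP repressor (chromosome 1, 191170296 to 191218039, minus strand), was at 127, 103, 55 and 59 in the pair-fed mice and 224, 4627, 3006, 1375 and 773 in the EtOH-fed mice, a change of 3.96 ± 0.67 (adjusted p = 0.00226). The groups did not overlap for either gene, and EtOH-fed mouse 1 had the lowest EtOH-fed value of both. With voom on estimated reads the adjusted p of *Atf3* was 0.0619. *Atf5*, a bZIP factor tied to the mitochondrial stress response, was far more even among the EtOH-fed mice. Its values were 12602, 13210, 10433 and 10960 in the pair-fed mice and 37285, 43132, 43398, 44826 and 48288 in the EtOH-fed mice, and it rose by 1.88 ± 0.12 on the log2 scale (adjusted p = 1.87e-06). *Nupr1*, a small stress-inducible chromatin protein, was at 219, 110, 85 and 140 in the pair-fed mice and 742, 1954, 1629, 962 and 920 in the EtOH-fed mice (log2 fold change 3.14 ± 0.30, adjusted p = 4.17e-05). None of the EtOH-fed values of *Atf5* or *Nupr1* fell into the pair-fed range.

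Secreted products of the same program followed, with a wide spread among the EtOH-fed mice. *Fgf21*, a fasting and stress hormone made by hepatocytes, was at 173, 140, 135 and 234 in the pair-fed mice and 530, 9952, 12041, 946 and 742 in the EtOH-fed mice (log2 fold change 3.68 ± 0.81, adjusted p = 0.0105). The call of *Fgf21* was lost with voom on estimated reads (adjusted p = 0.0928). EtOH-fed mice 2 and 3 held values about an order of magnitude above the other EtOH-fed mice, although even the lowest EtOH-fed value exceeded every pair-fed value. *Gdf15*, a hormone that reduces appetite, was at 167, 326, 482 and 403 in the pair-fed mice and 401, 4523, 5591, 1206 and 732 in the EtOH-fed mice, again highest in EtOH-fed mice 2 and 3, and here EtOH-fed mouse 1 lay within the pair-fed range. *Gdf15* rose by 2.27 ± 0.65 on the log2 scale (adjusted p = 0.0354), a call that was lost without pair-fed mouse 1, 2 or 4 or EtOH-fed mouse 2, 3 or 4 (adjusted p up to 0.0976). *Ddit3*, which encodes the proapoptotic factor CHOP, was at 161, 353, 246 and 313 in the pair-fed mice and 411, 1834, 2840, 723 and 1105 in the EtOH-fed mice (log2 fold change 2.11 ± 0.44, adjusted p = 0.00807) and did not overlap between groups. The same pair of EtOH-fed mice again had the highest values of *Ddit3*.

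Amino acid enzymes controlled by ATF4 did not move as 1 block. *Psat1*, the transaminase of serine synthesis, rose (121, 155, 63 and 173 in the pair-fed mice and 204, 350, 364, 592 and 369 in the EtOH-fed mice, log2 fold change 1.56 ± 0.31, adjusted p = 0.00647). *Mthfd2*, a mitochondrial folate enzyme, and *Cth*, which makes cysteine from cystathionine, rose by 1.84 ± 0.29 (adjusted p = 0.00158) and 1.14 ± 0.17 (adjusted p = 0.00109). *Phgdh*, the first enzyme of the same serine pathway as *Psat1*, fell. It was at 133, 167, 86 and 195 in the pair-fed mice and 22, 24, 44, 88 and 54 in the EtOH-fed mice (log2 fold change -1.75 ± 0.39, adjusted p = 0.0117), with EtOH-fed mouse 4 (88) just above pair-fed mouse 3 (86). *Shmt2*, the mitochondrial serine hydroxymethyltransferase, fell slightly (-0.39 ± 0.09, adjusted p = 0.0172), and its call was lost without pair-fed mouse 2 (adjusted p = 0.0506). *Vldlr*, a lipoprotein receptor on this list, rose by 0.95 ± 0.16 (adjusted p = 0.00254) without overlap. *Atf4* itself (0.60 ± 0.21, adjusted p = 0.0827), the asparagine synthetase gene *Asns* (1.002 ± 0.35, adjusted p = 0.0769) and the glutathione-degrading enzyme gene *Chac1* (-0.07 ± 0.59, adjusted p = 0.954) did not pass the threshold. *Chac1* was at 254, 228, 225 and 170 in the pair-fed mice and 173, 649, 555, 119 and 50 in the EtOH-fed mice, so that EtOH-fed mice 2 and 3 lay above all pair-fed mice and EtOH-fed mice 4 and 5 lay below them. Without a single mouse, the list had between 12 and 16 genes higher (14 with all mice), while its count of genes lower was 1 in place of 2 without pair-fed mouse 2.

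The promoters of these genes were read for the composite element that ATF4 and C/EBP proteins bind, searched as TGATGNAA on both strands. RefSeq promoter windows (250 bases before to 50 after the annotated start, GRCm38.p6) were given for 23 of the 26 genes, and 7 of the 23 (30.4%) held the element, compared with 4.51% of 27025 genes with a window. It was present in 5 of 15 called genes with a window and in 2 of 8 uncalled ones. The list was written from known targets of ATF4, so its excess over all genes is no result of these data. The sequences below show the element in 4 genes that rose and in *Chac1*, which did not pass the test, with 30 bases on either side, written 5′ to 3′ on the strand of the gene and with the element in capitals.
Atf3, chr1:191183406-191183473, minus strand: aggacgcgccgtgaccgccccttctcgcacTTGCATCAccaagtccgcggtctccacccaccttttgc
Nupr1, chr7:126625543-126625610, minus strand: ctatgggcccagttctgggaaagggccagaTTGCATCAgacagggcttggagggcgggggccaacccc
Fgf21, chr7:45615592-45615659, minus strand: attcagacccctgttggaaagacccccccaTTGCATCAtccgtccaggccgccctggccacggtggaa
Vldlr, chr19:27216790-27216857, plus strand: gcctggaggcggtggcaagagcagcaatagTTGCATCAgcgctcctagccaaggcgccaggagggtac
Chac1, chr2:119351019-119351086, plus strand: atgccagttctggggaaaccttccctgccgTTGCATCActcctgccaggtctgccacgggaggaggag
In all 5 the element lay on the strand opposite to the gene and read TTGCATCA, between 103 and 200 bases before the start. The matches not shown differed from these. That of *Trib3* read TTACATCA on the opposite strand, at positions 14 to 21 from the start. That of *Asns* read TGATGAAA on the strand of the gene, at positions -23 to -16. A match to these letters is a description of the window and does not show that a factor was bound there.

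**Figure D3:**
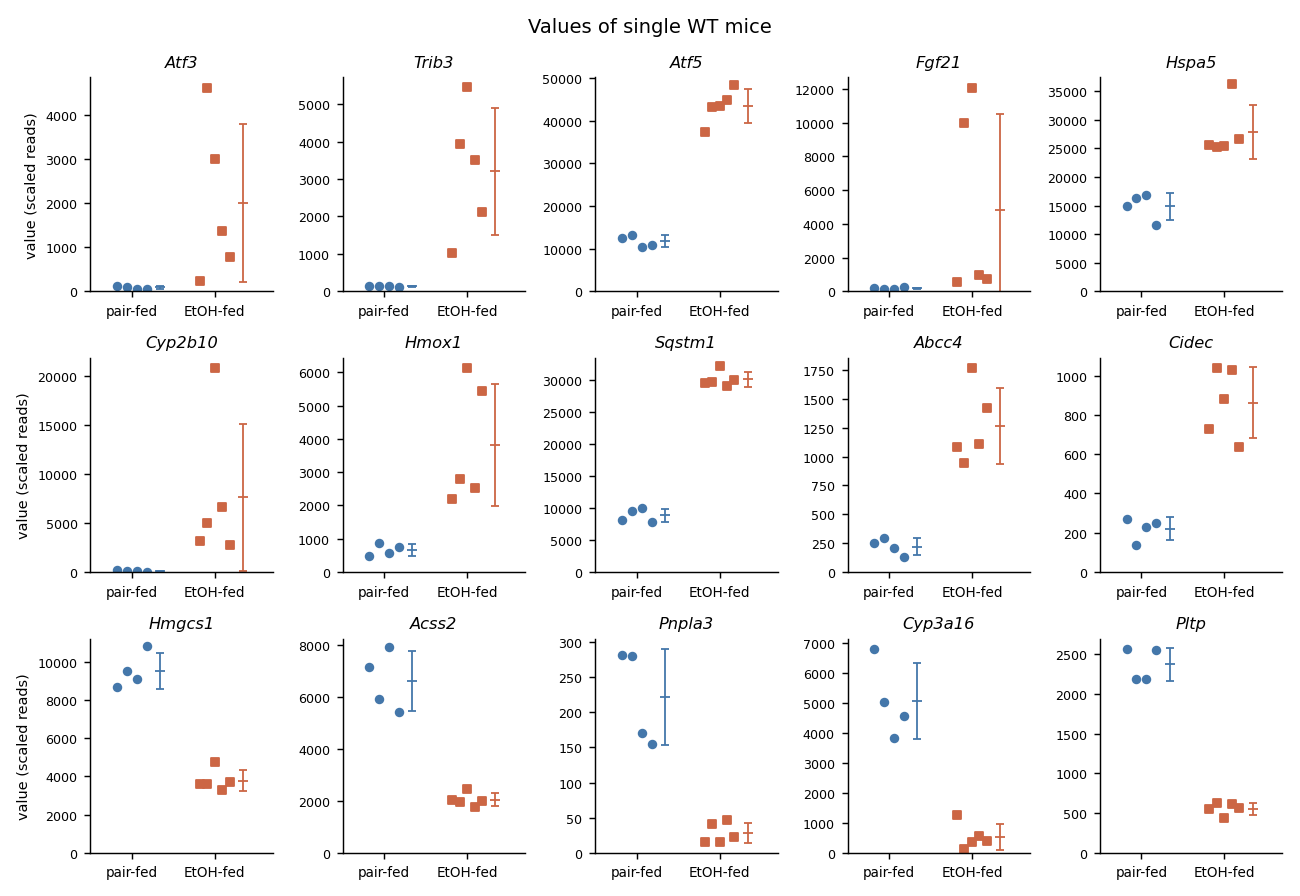
Scaled reads of 15 genes in single WT mice (circles, 4 pair-fed mice; squares, 5 EtOH-fed mice; order of mouse numbers from left to right), with the mean and SD beside each group. *Fgf21* and *Atf3* are spread widely among the EtOH-fed mice (530 to 12041 and 224 to 4627), whereas *Sqstm1* (29028 to 32184) and *Atf5* (37285 to 48288) are tight. The groups do not overlap in any of the 15 panels, which was a condition for naming those genes chosen by largest change or lowest p.

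The unfolded protein response, which raises chaperones and degradation factors when proteins misfold in the endoplasmic reticulum, also held genes that rose, with smaller changes. Of 28 measured genes, 11 rose and none fell, and their median log2 fold change was 0.34. Without single mice 8 to 10 genes rose. *Hspa5*, the luminal chaperone BiP, was at 14936, 16275, 16772 and 11552 in the pair-fed mice and 25689, 25222, 25374, 36202 and 26738 in the EtOH-fed mice (log2 fold change 0.90 ± 0.14, adjusted p = 0.00167). The groups did not overlap, and EtOH-fed mouse 4 stood above the other EtOH-fed mice. Among the stress sensors, *Ern1* (IRE1) rose by 0.81 ± 0.15 (adjusted p = 0.00413) and *Atf6* by 0.65 ± 0.15 (adjusted p = 0.0128). *Derl1*, a channel component of retrotranslocation, and *Dnajb9*, a cochaperone of BiP, rose by 0.63 ± 0.12 (adjusted p = 0.00453) and 0.54 ± 0.12 (adjusted p = 0.00946). *Syvn1*, the ubiquitin ligase HRD1, rose by 0.65 ± 0.16 (adjusted p = 0.0187), and its call was lost without pair-fed mouse 1 or 3 (adjusted p up to 0.0523). The chaperone gene *Hyou1* rose by 0.59 ± 0.16 (adjusted p = 0.0294), a call lost without pair-fed mouse 1 or 4 or EtOH-fed mouse 4 (adjusted p up to 0.093). The cochaperone gene *Dnajc3* rose by 0.35 ± 0.10 (adjusted p = 0.0425), a call lost without pair-fed mouse 2, 3 or 4 or EtOH-fed mouse 1, 2, 4 or 5 (adjusted p up to 0.117). *Derl3*, a low-level member of the derlin family, was at 35, 27, 28 and 45 in the pair-fed mice and 56, 100, 101, 187 and 48 in the EtOH-fed mice (1.38 ± 0.37, adjusted p = 0.0282), and its call was lost without pair-fed mouse 2 or 3 or EtOH-fed mouse 2, 3 or 4 (adjusted p up to 0.0766).

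The endoplasmic reticulum stress response element, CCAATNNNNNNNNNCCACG, was found in the windows of 9 of 24 genes of this list with a window (37.5%), compared with 0.137% of all genes with a window. It occurred in 4 of 8 called genes and in 5 of 16 uncalled ones. This list too was written from known members of the response, so its excess over all genes is no result of these data. The element is shown, in capitals and with 30 bases on each side, for 3 of the 4 genes that rose.
Hspa5, chr2:34771995-34772073, plus strand: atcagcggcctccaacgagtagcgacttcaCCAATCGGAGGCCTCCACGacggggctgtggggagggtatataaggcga
Dnajc3, chr14:118937797-118937875, plus strand: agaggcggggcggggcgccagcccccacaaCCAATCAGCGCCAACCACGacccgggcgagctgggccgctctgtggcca
Derl3, chr10:75893212-75893290, plus strand: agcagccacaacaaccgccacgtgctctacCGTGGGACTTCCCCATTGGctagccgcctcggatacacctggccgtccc
In *Derl3* the element lies on the strand opposite to the gene. *Hspa5* and *Derl3*, both with the element, differ greatly in level, as their values above show.

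Of 25 measured chaperone genes of the cytosolic and mitochondrial heat shock list, 5 rose, none fell and the other 20 did not pass the test (median 0.22), and 3 rose without pair-fed mouse 4 or EtOH-fed mouse 2. *Hspa9*, the mitochondrial HSP70, was at 16682, 13788, 17537 and 11599 in the pair-fed mice and 23644, 27570, 22153, 31496 and 23671 in the EtOH-fed mice (0.79 ± 0.15, adjusted p = 0.00388). *Hspb1*, a small heat shock protein, rose by 0.97 ± 0.19 (adjusted p = 0.00492), and neither gene overlapped between groups. Of 30 immediate early and AP-1 genes, 6 rose and none fell (median 0.39). *Sgk1*, a kinase induced by glucocorticoids and osmotic stress, was at 818, 663, 684 and 676 in the pair-fed mice and 1651, 5594, 4435, 2636 and 1221 in the EtOH-fed mice (1.91 ± 0.35, adjusted p = 0.00397). The AP-1 subunit gene *Jund* and the orphan receptor gene *Nr4a1* rose by 0.86 ± 0.18 (adjusted p = 0.00708) and 1.14 ± 0.27 (adjusted p = 0.0158). The call of *Nr4a1* was lost with voom on estimated reads (adjusted p = 0.071) and with all 4 groups in the fit (0.178). *Jun*, another AP-1 subunit gene, was at 565, 417, 699 and 482 in the pair-fed mice and 539, 3595, 4717, 643 and 900 in the EtOH-fed mice and did not pass the test (1.39 ± 0.55, adjusted p = 0.114). Its high values were again those of EtOH-fed mice 2 and 3, the mice with the highest *Atf3*, *Fgf21*, *Gdf15* and *Ddit3*.

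Antioxidant and detoxification genes are driven by the transcription factor NRF2. Of 40 measured genes, 12 rose and 1 fell, and their median log2 fold change was 0.38, while 7 rose without pair-fed mouse 4. The share that fell was below that of all genes. *Hmox1*, which degrades heme, was at 467, 858, 564 and 743 in the pair-fed mice and 2189, 2803, 6142, 2523 and 5436 in the EtOH-fed mice (2.44 ± 0.29, adjusted p = 0.000209). *Srxn1*, which repairs oxidized peroxiredoxins, was at 1095, 1321, 1264 and 817 in the pair-fed mice and 4019, 3451, 7031, 3563 and 5296 in the EtOH-fed mice (2.02 ± 0.20, adjusted p = 6.34e-05). Both genes were highest in EtOH-fed mice 3 and 5 and did not overlap between groups. *Abcc4*, an efflux pump of the basolateral membrane, was at 248, 295, 212 and 128 in the pair-fed mice and 1087, 944, 1771, 1114 and 1421 in the EtOH-fed mice (2.54 ± 0.23, adjusted p = 3.22e-05). *Ephx1*, microsomal epoxide hydrolase, rose by 1.25 ± 0.13 (adjusted p = 6.82e-05), and *Gclc*, the catalytic subunit of the first step of glutathione synthesis, by 0.97 ± 0.18 (adjusted p = 0.00441). *Nqo1*, the quinone reductase often used as a readout of NRF2, was at 421, 496, 372 and 239 in the pair-fed mice and 399, 433, 982, 522 and 646 in the EtOH-fed mice and did not pass the test (0.61 ± 0.26, adjusted p = 0.141). *G6pdx*, the first enzyme of the pentose phosphate pathway, fell (254, 207, 305 and 192 in the pair-fed mice and 91, 112, 72, 143 and 120 in the EtOH-fed mice, -1.16 ± 0.22, adjusted p = 0.00514). The count of genes lower was 2 without EtOH-fed mouse 3 and 4 without EtOH-fed mouse 5. An antioxidant response element, searched as TGACNNNGC on both strands, was found in 12 of 33 list genes with a promoter window (36.4%) against 14.0% of all genes with one, in 5 of 10 called genes and in 7 of 23 uncalled ones. Known NRF2 targets make up much of the list, so its excess over all genes is no result of these data.

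*Sqstm1*, the autophagy receptor p62 that is both a target of NRF2 and a stabilizer of it, gave one of the cleanest differences in the data (chromosome 11, 50199366 to 50210827, minus strand). It was at 8182, 9498, 10005 and 7795 in the pair-fed mice and 29604, 29733, 32184, 29028 and 29946 in the EtOH-fed mice, a log2 fold change of 1.77 ± 0.11 (adjusted p = 1.71e-06). *Ctsl*, the lysosomal protease cathepsin L, was at 16538, 15337, 15667 and 13167 in the pair-fed mice and 43874, 55099, 48061, 63618 and 41490 in the EtOH-fed mice (1.72 ± 0.14, adjusted p = 1.39e-05). The EtOH-fed values were tight for *Sqstm1* (29028 to 32184) and wider for *Ctsl* (41490 to 63618). The groups lay far apart for both genes. In the lysosomal list, 7 of 36 measured genes rose and none fell (median 0.14), with 4 without pair-fed mouse 2 or 4.

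Cytochrome P450 genes of families 1 to 3, which metabolize drugs, steroids and other foreign compounds, moved in both directions. Of 46 measured genes, 13 rose and 8 fell (median 0.06), and 8 rose without pair-fed mouse 1, 2 or 4. *Cyp2b10*, the classic target of the nuclear receptor CAR (chromosome 7, 25897620 to 25926624, plus strand), had the largest increase of all genes that met the naming rule. It was at 161, 91, 116 and 32 in the pair-fed mice and 3133, 4981, 20780, 6586 and 2731 in the EtOH-fed mice, a log2 fold change of 6.02 ± 0.54 (adjusted p = 2.63e-05). The lowest EtOH-fed value was many times the highest pair-fed value, and EtOH-fed mouse 3 was far above the other EtOH-fed mice. *Cyp3a11*, the main drug-metabolizing P450 of mouse liver, was at 42047, 42771, 46089 and 39822 in the pair-fed mice and 85139, 75348, 105470, 103161 and 76176 in the EtOH-fed mice (1.05 ± 0.14, adjusted p = 0.000552). *Cyp2b9*, a form known for its higher expression in females, and *Cyp2c50* rose by 0.80 ± 0.11 (adjusted p = 0.000455) and 0.93 ± 0.19 (adjusted p = 0.00645), with the *Cyp2b9* call lost in a fit of all 4 groups (adjusted p = 0.364). *Nr1i3*, the gene of CAR, was itself lower (2247, 2894, 2731 and 2999 in the pair-fed mice and 1982, 1644, 1807, 1844 and 1586 in the EtOH-fed mice, -0.61 ± 0.11, adjusted p = 0.00376).

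Other P450 genes fell. *Cyp3a16* (chromosome 5, 145436309 to 145469723, minus strand) was at 6799, 5030, 3827 and 4579 in the pair-fed mice and 1270, 136, 345, 556 and 388 in the EtOH-fed mice (-3.56 ± 0.45, adjusted p = 0.000326). *Cyp2c40* was at 16872, 12982, 16167 and 14105 in the pair-fed mice and 5784, 6060, 5255, 6583 and 7359 in the EtOH-fed mice (-1.28 ± 0.12, adjusted p = 3.85e-05). Neither gene overlapped between groups, and EtOH-fed mouse 1 kept the highest EtOH-fed value of *Cyp3a16*. *Cyp2c69* (-1.45 ± 0.22, adjusted p = 0.00114) and *Cyp2g1* (-2.06 ± 0.24, adjusted p = 0.000172) fell as well. Members of the *Cyp2b*, *Cyp2c* and *Cyp3a* clusters are close paralogs, so how reads were shared among them by the authors' counting is uncertain.

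The genes of alcohol and acetaldehyde oxidation did not rise. Of 15 measured genes, none rose and 6 fell, with a median log2 fold change of -0.38. The count was 2 without pair-fed mouse 1 or EtOH-fed mouse 2 and 3 without pair-fed mouse 2 or 3. *Acss2*, which turns acetate into acetyl-CoA in the cytosol and nucleus, was at 7180, 5925, 7936 and 5413 in the pair-fed mice and 2040, 1964, 2454, 1769 and 2010 in the EtOH-fed mice (-1.68 ± 0.13, adjusted p = 1.06e-05). *Adh4*, an alcohol dehydrogenase that also handles retinol, was at 2190, 2550, 2580 and 2160 in the pair-fed mice and 936, 1141, 1059, 1515 and 1008 in the EtOH-fed mice (-1.08 ± 0.14, adjusted p = 0.000326). Neither gene overlapped between groups. *Adh7*, a class with low affinity for ethanol, and catalase (*Cat*) fell, with log2 fold changes of -0.51 ± 0.13 (adjusted p = 0.0207) and -0.44 ± 0.12 (adjusted p = 0.0268). The call of *Adh7* was lost without pair-fed mouse 1 or 2 or EtOH-fed mouse 2 (adjusted p up to 0.0634), and that of *Cat* without pair-fed mouse 1, 2 or 3 or EtOH-fed mouse 1 or 2 (adjusted p up to 0.0719). The main enzymes of the pathway did not pass the test. *Adh1* was at 97740, 100232, 84975 and 95529 in the pair-fed mice and 78502, 78126, 88711, 66201 and 99730 in the EtOH-fed mice (-0.21 ± 0.15, adjusted p = 0.377). *Aldh2*, the mitochondrial enzyme that clears acetaldehyde, was at 74397, 72238, 81305 and 62924 in the pair-fed mice and 71695, 73761, 80172, 74917 and 69133 in the EtOH-fed mice (0.03 ± 0.13, adjusted p = 0.914). *Cyp2e1*, whose protein is known to be stabilized by ethanol, was at 242506, 215874, 238185 and 178002 in the pair-fed mice and 164833, 131500, 165430, 135057 and 171496 in the EtOH-fed mice (-0.51 ± 0.17, adjusted p = 0.0656). All 5 EtOH-fed values of *Cyp2e1* lay below all pair-fed values although the test was not passed. Per kilobase of exon, the mean level in EtOH-fed liver was 71200 scaled reads for *Cyp2e1*, 36800 for *Adh1* and 14400 for *Aldh2*, compared with 781 for *Adh4* and 229 for *Adh7*.

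Cholesterol synthesis was the list with the largest share of called genes. Of 25 measured genes under the transcription factor SREBP2, 20 fell and none rose, and their median log2 fold change was -0.88, while 17 to 20 fell without single mice. *Hmgcs1*, an early enzyme of the pathway, was at 8666, 9498, 9129 and 10819 in the pair-fed mice and 3584, 3585, 4737, 3290 and 3732 in the EtOH-fed mice (-1.34 ± 0.12, adjusted p = 2.4e-05). *Acat2*, the cytosolic thiolase before *Hmgcs1*, was at 3158, 2803, 2934 and 2804 in the pair-fed mice and 1335, 1245, 1223, 1140 and 1311 in the EtOH-fed mice (-1.23 ± 0.09, adjusted p = 1.04e-05). Both genes lay wholly lower in the EtOH-fed mice. The mevalonate decarboxylase gene *Mvd* fell (-1.11 ± 0.21, adjusted p = 0.00505). *Fdft1*, squalene synthase, and *Nsdhl*, an enzyme of the late pathway, fell, with log2 fold changes of -1.01 ± 0.10 (adjusted p = 3.85e-05) and -1.57 ± 0.15 (adjusted p = 4.37e-05). A sterol regulatory element, searched as TCACNCCAC on both strands, was found in the window of 1 of 17 genes of this list (*Hmgcs1*, 5.88%) and in 1.44% of all genes with a window.

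Genes of fatty acid and triglyceride synthesis fell in part. Of 22 measured genes, 9 fell and none rose (median -0.45), with 6 to 11 without single mice. *Scd1*, the stearoyl-CoA desaturase, was at 275028, 214946, 305205 and 283592 in the pair-fed mice and 109067, 96846, 53899, 108533 and 68766 in the EtOH-fed mice (-1.67 ± 0.22, adjusted p = 0.000511). *Pnpla3*, a hydrolase on lipid droplets, was at 282, 280, 171 and 155 in the pair-fed mice and 15, 41, 15, 46 and 23 in the EtOH-fed mice (-3.04 ± 0.37, adjusted p = 0.00025). The groups were clearly separated for both genes. *Fads1*, a desaturase of polyunsaturated fatty acids, and *Lpin1*, a phosphatidate phosphatase, fell, with log2 fold changes of -0.89 ± 0.15 (adjusted p = 0.00275) and -1.22 ± 0.26 (adjusted p = 0.009). *Fasn*, fatty acid synthase, was at 16555, 15487, 17610 and 9320 in the pair-fed mice and 6740, 12049, 6641, 10063 and 7696 in the EtOH-fed mice (-0.77 ± 0.21, adjusted p = 0.0288). Pair-fed mouse 4 overlapped with the EtOH-fed mice for *Fasn*, and the call was lost without pair-fed mouse 1, 2 or 3 or EtOH-fed mouse 1 or 3 (adjusted p up to 0.0808). *Srebf1*, the gene of the lipogenic factor SREBP1, did not pass the test (-0.65 ± 0.22, adjusted p = 0.0645).

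Of 16 measured genes of lipid droplet proteins and lipases, 4 were lower and 1 was higher (median 0.00), the last a share like that of all genes. *Cidec*, which promotes the growth of large droplets, was at 271, 140, 227 and 247 in the pair-fed mice and 726, 1041, 882, 1029 and 635 in the EtOH-fed mice (1.97 ± 0.21, adjusted p = 7.82e-05). It did not overlap between groups. The lipase genes *Lipe* and *Mgll* fell, with log2 fold changes of -0.81 ± 0.14 (adjusted p = 0.00302) and -0.68 ± 0.15 (adjusted p = 0.00892). *Plin2*, the droplet coat protein that follows triglyceride content, was at 17010, 21734, 20396 and 20239 in the pair-fed mice and 24904, 27712, 21644, 19056 and 18812 in the EtOH-fed mice and did not pass the test (0.17 ± 0.14, adjusted p = 0.464). Without pair-fed mouse 2 or EtOH-fed mouse 5 the list had 2 genes higher, and without pair-fed mouse 3 it had 2 genes lower.

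Genes of fatty acid oxidation, with the other targets of the nuclear receptor PPARα that governs it, were next. Of 38 measured genes, 16 fell and 2 rose (median -0.32), the last a share like that of all genes. Without single mice 13 to 16 were lower. *Fabp1*, the main fatty acid binding protein of hepatocytes, was at 140640, 151576, 152446 and 219352 in the pair-fed mice and 49192, 59257, 49072, 50802 and 79784 in the EtOH-fed mice (-1.53 ± 0.19, adjusted p = 0.00025). *Ppara* itself was at 2316, 2328, 2117 and 2846 in the pair-fed mice and 1754, 1208, 1353, 1358 and 1798 in the EtOH-fed mice (-0.69 ± 0.14, adjusted p = 0.00585). Both genes were lower in each EtOH-fed mouse than in any pair-fed mouse. *Acaa1b*, a peroxisomal thiolase, fell (-0.85 ± 0.11, adjusted p = 0.000326). *Vnn1*, a pantetheinase, fell (-0.82 ± 0.11, adjusted p = 0.000534). Acyl-CoA thioesterases split, since *Acot3* fell (-1.21 ± 0.13, adjusted p = 7.93e-05) while *Acot2*, a mitochondrial form, rose (1176, 1099, 1052 and 1782 in the pair-fed mice and 2821, 2088, 2922, 2544 and 2142 in the EtOH-fed mice, 0.99 ± 0.16, adjusted p = 0.00183). The other gene of this list that rose was *Fgf21*. *Cpt1a*, which admits fatty acids to mitochondria, was at 14250, 14732, 16626 and 13371 in the pair-fed mice and 17392, 18502, 12600, 16209 and 9922 in the EtOH-fed mice (-0.01 ± 0.17, adjusted p = 0.967), with full overlap of the groups.

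*Pltp*, the phospholipid transfer protein that remodels HDL (chromosome 2, 164839518 to 164857711, minus strand), had one of the lowest p values of the genes that fell. It was at 2564, 2185, 2196 and 2552 in the pair-fed mice and 547, 627, 436, 613 and 566 in the EtOH-fed mice (-2.09 ± 0.12, adjusted p = 1.71e-06), so every EtOH-fed mouse had less than the lowest pair-fed mouse by a wide margin. Of 26 measured apolipoprotein and lipoprotein genes, 3 rose and 5 fell (median -0.08), and 3 fell without pair-fed mouse 1, 2 or 4 or EtOH-fed mouse 1 or 2. The canalicular sterol exporters *Abcg5* and *Abcg8* fell, with log2 fold changes of -1.15 ± 0.13 (adjusted p = 0.000172) and -1.01 ± 0.20 (adjusted p = 0.00545). *Apoa4*, an apolipoprotein that rises with hepatic fat, was at 3711, 3646, 3952 and 4384 in the pair-fed mice and 10069, 12935, 12963, 8169 and 6795 in the EtOH-fed mice (1.33 ± 0.17, adjusted p = 0.000437). *Apom*, the carrier of sphingosine 1-phosphate on HDL, rose by 0.90 ± 0.16 (adjusted p = 0.00314). *Apoc1* was at 104078, 116044, 98761 and 137345 in the pair-fed mice and 69721, 58495, 82438, 58105 and 101519 in the EtOH-fed mice (-0.64 ± 0.19, adjusted p = 0.0362), with overlap of EtOH-fed mouse 5, and its call was lost without pair-fed mouse 1, 2 or 4 or EtOH-fed mouse 1, 2 or 4 (adjusted p up to 0.0972). *Apoe* was at 716777, 798431, 658805 and 694458 in the pair-fed mice and 748966, 611230, 775057, 621933 and 791833 in the EtOH-fed mice and did not pass the test (-0.02 ± 0.22, adjusted p = 0.966).

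Bile acid genes changed in single steps, with 4 of 25 measured genes higher and 2 lower (median -0.02), the last a share like that of all genes. *Cyp39a1*, a 7-alpha-hydroxylase of oxysterols, was at 1879, 834, 1168 and 861 in the pair-fed mice and 3187, 2921, 3084, 2338 and 2614 in the EtOH-fed mice (1.33 ± 0.20, adjusted p = 0.00124). *Acox2*, which shortens the bile acid side chain in peroxisomes, rose by 0.95 ± 0.18 (adjusted p = 0.00485). *Cyp27a1*, which opens the alternative pathway, fell (-0.67 ± 0.16, adjusted p = 0.0133), and all its EtOH-fed values were below the pair-fed ones. *Slco1a1*, an organic anion uptake carrier, was at 1083, 356, 1276 and 1172 in the pair-fed mice and 383, 159, 267, 410 and 309 in the EtOH-fed mice (-1.58 ± 0.35, adjusted p = 0.0114), and pair-fed mouse 2 lay among the EtOH-fed mice. In a fit of all 4 groups its adjusted p was 0.0519. *Cyp7a1*, the rate-limiting enzyme of the classic pathway, was at 8874, 10082, 8947 and 8640 in the pair-fed mice and 10150, 3056, 5369, 11018 and 7125 in the EtOH-fed mice (-0.45 ± 0.29, adjusted p = 0.335). Its EtOH-fed values lay on both sides of the narrow pair-fed range.

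Methionine and one-carbon enzymes, which supply methyl groups and glutathione precursors, were changed in 15 of 34 genes, 9 higher and 6 lower (median 0.12). *Mat1a*, the hepatic S-adenosylmethionine synthetase, was at 107415, 106948, 112455 and 91370 in the pair-fed mice and 178832, 188253, 164094, 169516 and 138947 in the EtOH-fed mice (0.68 ± 0.15, adjusted p = 0.0109). *Gldc*, the decarboxylase of the glycine cleavage system, was at 1147, 1108, 1526 and 1061 in the pair-fed mice and 3129, 3529, 3177, 2933 and 1546 in the EtOH-fed mice (1.20 ± 0.21, adjusted p = 0.0027). EtOH-fed mouse 5 had the lowest EtOH-fed value of both, still above the pair-fed mice. Among those that fell was *Gamt*, which methylates guanidinoacetate to creatine (-0.75 ± 0.11, adjusted p = 0.000927). The *Mthfd2*, *Cth* and *Shmt2* values given with the stress response belong to this list too.

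Of 31 measured genes of glucose and glycogen metabolism, 8 rose and 1 fell (median 0.20), the last a share below that of all genes. The counts of genes higher were 4 without pair-fed mouse 2 or 4 and 5 without EtOH-fed mouse 2 or 4, and the counts lower were 3 and 2 without EtOH-fed mouse 1 and 5. *Ppp1r3c*, which targets protein phosphatase 1 to glycogen, was at 288, 250, 396 and 361 in the pair-fed mice and 857, 1944, 2185, 1089 and 964 in the EtOH-fed mice (2.03 ± 0.26, adjusted p = 0.000383). *Fbp1*, an enzyme of gluconeogenesis, and *Ugp2*, which makes UDP-glucose, rose by 0.82 ± 0.19 (adjusted p = 0.0127) and 0.72 ± 0.16 (adjusted p = 0.0105). *Igfbp1*, an insulin-repressed secreted protein that binds IGF1, was at 6730, 2836, 3152 and 2834 in the pair-fed mice and 11307, 34012, 36725, 12249 and 4365 in the EtOH-fed mice (2.05 ± 0.51, adjusted p = 0.0197). EtOH-fed mice 2 and 3 were again highest, EtOH-fed mouse 5 lay below pair-fed mouse 1, and the call was lost without pair-fed mouse 2 or 4 (adjusted p up to 0.0622). *Pfkfb1*, which sets the level of fructose 2,6-bisphosphate, fell (-1.05 ± 0.18, adjusted p = 0.00276).

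Of 39 measured genes of the urea cycle and amino acid breakdown, 11 rose and 3 fell (median 0.13), the last a share like that of all genes. *Cps1*, the entry enzyme of the urea cycle, was at 39218, 31323, 43103 and 23778 in the pair-fed mice and 84587, 90916, 61816, 88472 and 49157 in the EtOH-fed mice (1.12 ± 0.21, adjusted p = 0.0049). *Tat*, tyrosine aminotransferase, was at 26939, 20091, 24133 and 14225 in the pair-fed mice and 48536, 88343, 59237, 58166 and 37256 in the EtOH-fed mice (1.43 ± 0.23, adjusted p = 0.00183). EtOH-fed mouse 5 had the lowest EtOH-fed value of both, above all pair-fed values. *Gpt2*, mitochondrial alanine transaminase, *Asl*, argininosuccinate lyase, and *Slc25a15*, the ornithine carrier, rose by 1.02 ± 0.12 (adjusted p = 0.000173), 0.81 ± 0.13 (adjusted p = 0.0016) and 0.89 ± 0.14 (adjusted p = 0.00124). *Fah*, the last enzyme of tyrosine breakdown, fell (-0.53 ± 0.10, adjusted p = 0.00562).

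Hepatocytes near the portal vein and near the central vein express different enzymes. Periportal genes had 5 of 22 higher and none lower (median 0.29), with 3 higher without pair-fed mouse 2 or 4 and 9 higher and 1 lower without EtOH-fed mouse 5. Their called members included *Asl*, *Cps1* and *Fbp1*. Pericentral genes had 3 of 25 higher and 3 lower (median 0.07), with 1 higher without pair-fed mouse 2 or 4, 5 higher without EtOH-fed mouse 4, 1 lower without pair-fed mouse 1, 2 or 3 or EtOH-fed mouse 2 or 4, and 5 lower without EtOH-fed mouse 5. *Rgn*, the calcium-binding lactonase of vitamin C synthesis, was at 46098, 44241, 45873 and 39450 in the pair-fed mice and 22439, 18573, 22158, 19636 and 21906 in the EtOH-fed mice (-1.07 ± 0.11, adjusted p = 7.44e-05). *Lgr5*, a Wnt pathway receptor of the innermost hepatocytes, was at 357, 438, 396 and 366 in the pair-fed mice and 224, 146, 335, 240 and 289 in the EtOH-fed mice (-0.70 ± 0.21, adjusted p = 0.0416), and its call was lost without pair-fed mouse 1, 2, 3 or 4 or EtOH-fed mouse 1, 2 or 4 (adjusted p up to 0.114). *Glul*, glutamine synthetase of the same cells, did not pass the test (-0.09 ± 0.17, adjusted p = 0.763).

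Clock genes differed between groups that were killed at the same time after the dose. Of 23 measured genes, 3 rose and 8 fell (median -0.23), with 5 lower without pair-fed mouse 1 or 3 or EtOH-fed mouse 3, and 5 higher without EtOH-fed mouse 4. *Bmal1*, the activator partner of CLOCK, was at 104, 76, 62 and 101 in the pair-fed mice and 351, 283, 410, 125 and 360 in the EtOH-fed mice (1.75 ± 0.31, adjusted p = 0.0032). *Dbp*, an output gene of that activator, was at 1809, 2033, 2590 and 1178 in the pair-fed mice and 407, 504, 335, 1354 and 310 in the EtOH-fed mice (-1.89 ± 0.36, adjusted p = 0.00481). EtOH-fed mouse 4 had the EtOH-fed value nearest the pair-fed mice for both genes and lay within their range for *Dbp*. *Clock* and *Nfil3*, a repressor of *Dbp* target sites, rose by 0.59 ± 0.15 (adjusted p = 0.0213) and 1.17 ± 0.24 (adjusted p = 0.0075). The call of *Clock* was lost without pair-fed mouse 2 or 3 (adjusted p up to 0.0545). *Tef*, *Usp2* and *Ciart*, all of them rhythmic outputs, fell, with log2 fold changes of -0.53 ± 0.10 (adjusted p = 0.00374), -1.02 ± 0.21 (adjusted p = 0.00757) and -0.97 ± 0.21 (adjusted p = 0.00967).

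In the growth hormone and IGF axis, 1 of 19 genes rose (*Igfbp1*), a share like that of all genes, and none fell (median -0.27). The count of genes higher was 0 without pair-fed mouse 2 or 4 and 2 without pair-fed mouse 1. The count of genes lower was 4 without EtOH-fed mouse 5 and 1 without pair-fed mouse 1 or 3 or EtOH-fed mouse 1. The hormone gene *Igf1* (-0.43 ± 0.18, adjusted p = 0.12) and the STAT5 feedback gene *Socs2* (-0.93 ± 0.29, adjusted p = 0.0511) did not pass the test.

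*Hamp*, which encodes hepcidin, the hormone that limits iron release from cells, and its paralog *Hamp2* were both lower. The firmer of these changes was that of *Hamp2*. *Hamp2* was at 4293, 6123, 5940 and 4601 in the pair-fed mice and 1305, 948, 728, 659 and 702 in the EtOH-fed mice (-2.62 ± 0.19, adjusted p = 6.29e-06), with the groups far apart. *Hamp* was at 41771, 53352, 26539 and 37598 in the pair-fed mice and 29595, 3052, 5997, 730 and 18771 in the EtOH-fed mice (-2.70 ± 0.80, adjusted p = 0.0411). EtOH-fed mice 1 and 5 kept much of the *Hamp* level and EtOH-fed mouse 4 had the least, EtOH-fed mouse 1 overlapped the pair-fed range, and the call was lost without pair-fed mouse 1, 2, 3 or 4 or EtOH-fed mouse 2 or 3 (adjusted p up to 0.107). The 2 genes are close paralogs, so the split of reads between them is uncertain. *Bmp2*, a ligand from endothelium that raises hepcidin, was higher (507, 438, 508 and 565 in the pair-fed mice and 662, 794, 904, 857 and 883 in the EtOH-fed mice, 0.70 ± 0.13, adjusted p = 0.00373). Of 26 iron genes, 3 rose and 2 fell (median 0.09), the last a share like that of all genes. The counts were 1 higher without pair-fed mouse 1 or EtOH-fed mouse 1, 2, 3 or 5 and 1 lower without any 1 pair-fed mouse or EtOH-fed mouse 2 or 3.

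Plasma proteins of inflammation did not rise as a group. Of 33 acute-phase genes, 4 fell and 2 rose (median -0.08), the last a share like that of all genes. Serum amyloid A genes were lower. *Saa1* was at 3993, 17227, 2795 and 2506 in the pair-fed mice and 2429, 2311, 1203, 1244 and 908 in the EtOH-fed mice (-1.64 ± 0.47, adjusted p = 0.0375), and *Saa2* at 2674, 12596, 1490 and 1852 in the pair-fed mice and 1345, 1248, 728, 654 and 455 in the EtOH-fed mice (-1.93 ± 0.51, adjusted p = 0.026). Pair-fed mouse 2 stood far above every other mouse for both genes, though the other 3 pair-fed mice also lay above all EtOH-fed mice. The call of *Saa1* was lost without pair-fed mouse 1 or 2 or EtOH-fed mouse 3, 4 or 5 (adjusted p up to 0.0741), and that of *Saa2* without EtOH-fed mouse 4 (adjusted p = 0.0531). *Saa4* fell (-0.85 ± 0.18, adjusted p = 0.00886). *Lbp*, which presents endotoxin to CD14, rose (2772, 3363, 2840 and 2780 in the pair-fed mice and 5258, 5004, 4009, 4504 and 3117 in the EtOH-fed mice, 0.56 ± 0.14, adjusted p = 0.023), as did the serpin gene *Serpina3m* (0.54 ± 0.16, adjusted p = 0.0424). Both calls were fragile, that of *Lbp* being lost without pair-fed mouse 1, 3 or 4 or EtOH-fed mouse 1 or 2 (adjusted p up to 0.0635) and that of *Serpina3m* without pair-fed mouse 1, 2 or 4 or EtOH-fed mouse 1, 2, 3 or 4 (adjusted p up to 0.121). The list had 0 genes higher without pair-fed mouse 1 or 4 or EtOH-fed mouse 1, 1 higher without pair-fed mouse 3 or EtOH-fed mouse 2 or 3, and 2 lower without pair-fed mouse 1 or 2 or EtOH-fed mouse 3 or 4.

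Complement and coagulation genes had none of 41 higher and 8 lower (median -0.08), with 5 lower without pair-fed mouse 2 or 4. *F11*, coagulation factor XI, fell (-0.84 ± 0.14, adjusted p = 0.00225), as did the lectin gene *Mbl2* (-0.65 ± 0.12, adjusted p = 0.00476) and *C6*, a part of the membrane attack complex (-0.70 ± 0.13, adjusted p = 0.0051). *C1qb*, a chain of C1q that liver macrophages make, was at 1394, 1808, 1323 and 2209 in the pair-fed mice and 782, 1188, 730, 1077 and 900 in the EtOH-fed mice (-0.84 ± 0.18, adjusted p = 0.00842). None of these 4 genes overlapped between groups.

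Chemokine and cytokine genes had none of 34 higher and 3 lower (8.82%, near the 6.52% of all genes, median -0.24). *Cxcl9*, an interferon-gamma-induced attractant of T cells, was at 605, 682, 606 and 612 in the pair-fed mice and 185, 283, 165, 345 and 186 in the EtOH-fed mice (-1.48 ± 0.20, adjusted p = 0.000613), and *Ccl27a* fell (-1.05 ± 0.21, adjusted p = 0.0068). *Cxcl12*, a homeostatic attractant, fell (-0.47 ± 0.12, adjusted p = 0.0222), a call lost without pair-fed mouse 1 or EtOH-fed mouse 2 (adjusted p up to 0.0573). Endotoxin sensing, NF-κB and inflammasome genes were mixed, with 6 of 41 higher and 3 lower (median -0.06), the last a share like that of all genes. *Ticam1*, the TRIF adaptor, and *Rela*, the p65 subunit, rose by 0.77 ± 0.13 (adjusted p = 0.00228) and 0.56 ± 0.10 (adjusted p = 0.00413). *Il1r1*, the interleukin 1 receptor, was at 1867, 2553, 1366 and 1962 in the pair-fed mice and 1324, 755, 1049, 912 and 690 in the EtOH-fed mice (-1.04 ± 0.20, adjusted p = 0.00515). The counts were 3 higher without pair-fed mouse 3 or EtOH-fed mouse 2, and 1 lower without pair-fed mouse 1, 2 or 4 or EtOH-fed mouse 3.

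Interferon-stimulated genes fell in part. Of 49 measured genes, 16 fell and none rose, and their median log2 fold change was -0.47, while without pair-fed mouse 2 the count was 9. *Irf7*, the master regulator of type I interferon genes, was at 1400, 2015, 1487 and 1819 in the pair-fed mice and 759, 915, 898, 1005 and 888 in the EtOH-fed mice (-0.90 ± 0.13, adjusted p = 0.000791). *Igtp*, an immunity-related GTPase, was at 2339, 2727, 1941 and 2182 in the pair-fed mice and 988, 1258, 1203, 1531 and 884 in the EtOH-fed mice (-0.98 ± 0.16, adjusted p = 0.00156). All EtOH-fed values lay below the pair-fed ones for both genes. *Ifi27l2a* and *Rtp4*, a pair of interferon-induced genes, fell, with log2 fold changes of -1.12 ± 0.18 (adjusted p = 0.00203) and -0.71 ± 0.12 (adjusted p = 0.00225). Genes of antigen presentation had none of 21 higher and 8 lower (median -0.32), with 5 lower without pair-fed mouse 4 and 1 higher without EtOH-fed mouse 5. Genes of class II presentation were among them. *Cd74*, the invariant chain, was at 3192, 3177, 2310 and 4179 in the pair-fed mice and 1647, 1884, 1530, 2273 and 1956 in the EtOH-fed mice (-0.77 ± 0.16, adjusted p = 0.00757). *H2-Aa* and *H2-Eb1* fell, with log2 fold changes of -0.86 ± 0.18 (adjusted p = 0.00757) and -0.83 ± 0.18 (adjusted p = 0.00932), as did *Nlrc5*, the transactivator of class I genes (-0.87 ± 0.17, adjusted p = 0.00458).

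Some markers of liver macrophages fell too. In bulk tissue, fewer cells of a type and less RNA per cell cannot be told apart, so these values are levels in whole liver. Of 16 Kupffer cell markers, 5 fell and none rose (median -0.56), with 2 without pair-fed mouse 2 or 4 and 3 without EtOH-fed mouse 1 or 3. *Clec4f*, a lectin of resident Kupffer cells, was at 3492, 4522, 4174 and 5573 in the pair-fed mice and 1995, 3633, 2146, 2948 and 2833 in the EtOH-fed mice (-0.73 ± 0.18, adjusted p = 0.0177), and its call was lost without pair-fed mouse 2 or 4 (adjusted p up to 0.0609). *Cd5l*, a secreted scavenger protein, was at 2576, 3277, 3153 and 4670 in the pair-fed mice and 1455, 2906, 1510, 2411 and 1801 in the EtOH-fed mice (-0.78 ± 0.21, adjusted p = 0.0284), with its call lost without pair-fed mouse 2 or 4 or EtOH-fed mouse 1 or 3 (adjusted p up to 0.0933). For both genes EtOH-fed mouse 2 lay within the pair-fed range. *Il18bp*, which neutralizes interleukin 18, fell (-0.78 ± 0.15, adjusted p = 0.00492). *Timd4*, a receptor for dying cells on resident macrophages, was at 115, 268, 275 and 595 in the pair-fed mice and 140, 243, 124, 227 and 152 in the EtOH-fed mice and did not pass the test (-0.64 ± 0.37, adjusted p = 0.285). Pair-fed mouse 1 had the lowest *Timd4* value of all mice and pair-fed mouse 4 the highest.

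The pan-myeloid list had 11 of 25 genes lower and none higher (median -0.62), with 7 without pair-fed mouse 2 and 5 without pair-fed mouse 4. *Mpeg1*, a pore-forming protein of phagocytes, was at 1879, 2769, 2423 and 2711 in the pair-fed mice and 1007, 1342, 823, 1384 and 999 in the EtOH-fed mice (-1.15 ± 0.17, adjusted p = 0.000807). *Aif1*, which encodes IBA1, was at 346, 329, 198 and 461 in the pair-fed mice and 108, 138, 104, 128 and 139 in the EtOH-fed mice (-1.38 ± 0.22, adjusted p = 0.00183). The groups did not overlap for either gene. *Fcgr1*, the high-affinity IgG receptor, fell (-1.19 ± 0.23, adjusted p = 0.00489). *Csf1r*, the receptor for the macrophage growth factor, fell (-0.62 ± 0.17, adjusted p = 0.032), and its call was lost without pair-fed mouse 2, 3 or 4 or EtOH-fed mouse 1 or 3 (adjusted p up to 0.103). *Adgre1*, which encodes F4/80, was at 282, 250, 398 and 506 in the pair-fed mice and 205, 341, 105, 249 and 199 in the EtOH-fed mice and did not pass the test (-0.75 ± 0.30, adjusted p = 0.116).

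Markers of monocyte-derived and lipid-associated macrophages had 5 of 18 genes lower and none higher (median -0.36), with 2 without pair-fed mouse 1, 2 or 4 or EtOH-fed mouse 1, 2 or 3. The gene with the largest change, *Fabp5*, encodes a fatty acid binding protein that hepatocytes and other cells make too. It was at 6483, 4196, 3157 and 5426 in the pair-fed mice and 300, 575, 379, 1277 and 682 in the EtOH-fed mice (-3.04 ± 0.34, adjusted p = 0.000137). *Plac8*, a gene of circulating monocytes, fell (-0.89 ± 0.18, adjusted p = 0.00758). *Vcan*, a proteoglycan, was near the low end of the data at 40, 43, 14 and 64 in the pair-fed mice and 6, 5, 5, 24 and 5 in the EtOH-fed mice (-2.15 ± 0.59, adjusted p = 0.0294), and its call was lost without pair-fed mouse 1, 2 or 4 or EtOH-fed mouse 1, 2 or 3 (adjusted p up to 0.099). *Spp1*, osteopontin, which bile duct cells also express, was at 4518, 3153, 2489 and 4845 in the pair-fed mice and 1868, 1343, 1989, 2304 and 3107 in the EtOH-fed mice (-0.82 ± 0.23, adjusted p = 0.0326), with its call lost without pair-fed mouse 1, 2 or 4 or EtOH-fed mouse 1, 2 or 3 (adjusted p up to 0.106).

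Neutrophil markers could be read for only 12 of the 27 genes written. Of these, 2 fell and none rose (median -0.44), with 1 without pair-fed mouse 1, 2 or 4. The members that fell were *Mxd1*, a MYC antagonist (357, 286, 246 and 207 in the pair-fed mice and 124, 133, 175, 127 and 153 in the EtOH-fed mice, -0.92 ± 0.19, adjusted p = 0.0072), and *Hdc*, histidine decarboxylase (1527, 1050, 644 and 914 in the pair-fed mice and 648, 370, 525, 266 and 651 in the EtOH-fed mice, -1.08 ± 0.28, adjusted p = 0.0233), neither of which is limited to neutrophils. The call of *Hdc* was lost without pair-fed mouse 1, 2 or 4 (adjusted p up to 0.0674). Of 23 lymphocyte markers, 1 fell, a share below that of all genes, and none rose (median -0.65). It was *Ighm*, the IgM heavy chain, at 478, 493, 292 and 780 in the pair-fed mice and 137, 224, 277, 347 and 276 in the EtOH-fed mice (-0.99 ± 0.28, adjusted p = 0.0359), and its call was lost without pair-fed mouse 1, 2 or 4 or EtOH-fed mouse 1 or 2 (adjusted p up to 0.117). EtOH-fed values of *Ighm* reached from below to within the pair-fed range, which was widest upward in pair-fed mouse 4.

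**Figure D4:**
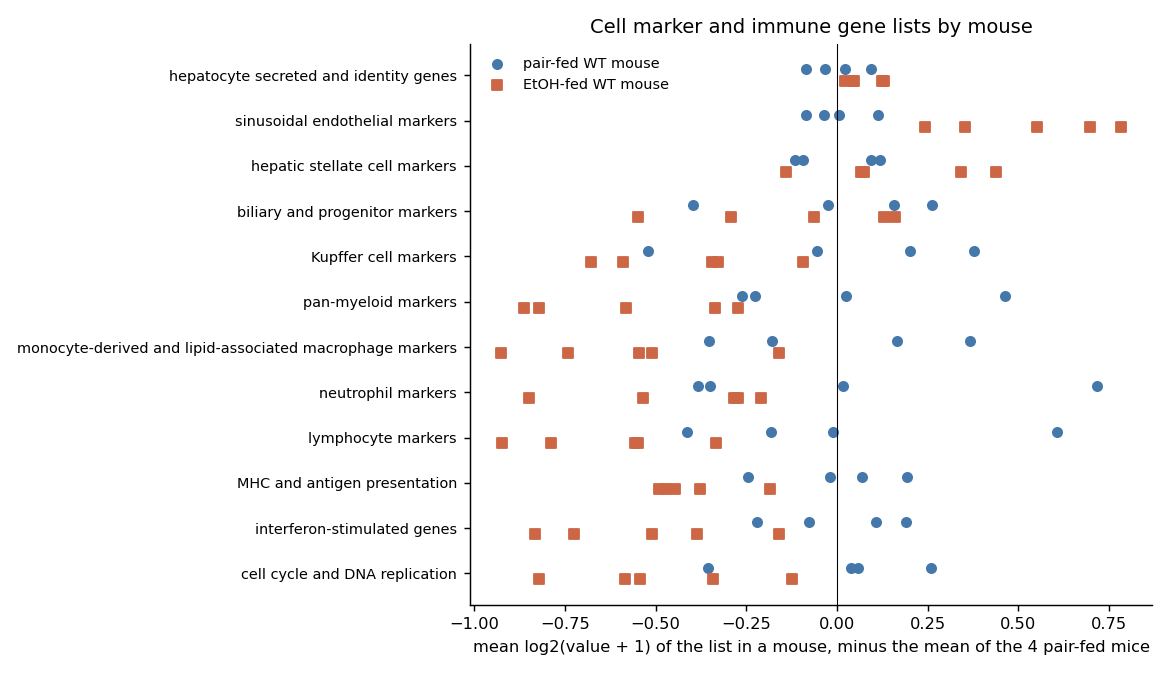
Mean log2(value + 1) of each list in each WT mouse, minus the mean of the 4 pair-fed mice (circles, pair-fed; squares, EtOH-fed). The endothelial list is above the pair-fed range in all 5 EtOH-fed mice (0.24 to 0.78), the pan-myeloid list is at -0.86 to -0.27 in the EtOH-fed mice and -0.26 to 0.46 in the pair-fed mice, and the hepatocyte list stays between -0.08 and 0.13 in all 9.

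Markers of liver sinusoidal endothelial cells went the other way. Of 27 measured genes, 13 rose and none fell, and their median log2 fold change was 0.46, while 10 to 13 rose without single mice. *Lyve1*, a hyaluronan receptor, was at 351, 240, 239 and 378 in the pair-fed mice and 502, 587, 889, 531 and 781 in the EtOH-fed mice (1.12 ± 0.20, adjusted p = 0.00356). *Gpr182*, an atypical chemokine receptor, was at 547, 560, 639 and 530 in the pair-fed mice and 1029, 1367, 1037, 1232 and 1315 in the EtOH-fed mice (1.06 ± 0.12, adjusted p = 0.000163). All EtOH-fed values exceeded the pair-fed ones for both genes. *Aqp1*, a water channel, *Kdr*, the VEGF receptor, and *Ehd3*, an endocytic protein, rose by 0.94 ± 0.14 (adjusted p = 0.000942), 0.80 ± 0.13 (adjusted p = 0.00181) and 0.79 ± 0.12 (adjusted p = 0.00135). The scavenger receptor gene *Stab2* did not pass the test (0.30 ± 0.14, adjusted p = 0.174). Mean log2(value + 1) over the list was 9.13 to 9.33 in the pair-fed mice and 9.45 to 10.00 in the EtOH-fed mice.

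Few stellate cell and matrix genes were called. Of 21 stellate cell markers, 2 rose (9.52%, near the 6.19% of all genes) and none fell (median 0.12), with 1 without pair-fed mouse 2, 3 or 4 or EtOH-fed mouse 4. *Pdgfra*, a growth factor receptor of quiescent and activated mesenchyme, was at 156, 173, 211 and 254 in the pair-fed mice and 414, 316, 519, 353 and 554 in the EtOH-fed mice (1.11 ± 0.20, adjusted p = 0.0035). *Sparcl1*, a matricellular protein, rose by 0.55 ± 0.15 (adjusted p = 0.0283), a call lost without pair-fed mouse 2, 3 or 4 or EtOH-fed mouse 2 or 4 (adjusted p up to 0.0894). Of 51 collagen and matrix genes, 4 rose and 3 fell (median -0.07), both shares like those of all genes. *Col13a1*, a transmembrane collagen, was at 69, 85, 123 and 109 in the pair-fed mice and 143, 290, 343, 203 and 260 in the EtOH-fed mice (1.32 ± 0.26, adjusted p = 0.00555, and 0.0529 with voom on estimated reads). *Timp1*, an inhibitor of matrix metalloproteinases, was at 46, 100, 47 and 138 in the pair-fed mice and 12, 13, 17, 43 and 33 in the EtOH-fed mice (-1.78 ± 0.46, adjusted p = 0.0236). The groups did not overlap for *Timp1*, and its call was lost without pair-fed mouse 2 or 4 or EtOH-fed mouse 1 or 2 (adjusted p up to 0.0831).

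Biliary and progenitor markers had 2 of 21 genes higher and 2 lower (median -0.21), both shares near those of all genes. The counts were 1 higher without pair-fed mouse 1 or 3 or EtOH-fed mouse 3 or 4, 4 higher without EtOH-fed mouse 5, 0 lower without pair-fed mouse 1, 2 or 4, and 1 lower without EtOH-fed mouse 1, 2 or 3. Keratins moved apart. *Krt23*, a keratin induced in injured hepatocytes, was at 58, 33, 58 and 27 in the pair-fed mice and 134, 214, 310, 659 and 214 in the EtOH-fed mice (2.63 ± 0.39, adjusted p = 0.00109). *Krt19*, the duct keratin, was at 542, 460, 308 and 551 in the pair-fed mice and 95, 43, 111, 404 and 162 in the EtOH-fed mice (-1.86 ± 0.46, adjusted p = 0.0201), and its call was lost without pair-fed mouse 1, 2 or 4 (adjusted p up to 0.0622). EtOH-fed mouse 4 had the highest EtOH-fed value of both, and with it *Krt19* reached into the pair-fed range. *Krt18*, a keratin of hepatocytes, rose by 0.50 ± 0.13 (adjusted p = 0.0265), a call lost without pair-fed mouse 1 or 3 or EtOH-fed mouse 3 or 4 (adjusted p up to 0.0744). Of 30 hepatocyte identity genes, 6 rose and 3 fell (median -0.05), with 3 higher without pair-fed mouse 2. Mean log2(value + 1) over this list was 14.11 to 14.29 in the pair-fed mice and 14.21 to 14.32 in the EtOH-fed mice. Paralogous forkhead factors moved in opposite directions, since *Foxa3* rose (1804, 1805, 1712 and 1505 in the pair-fed mice and 2882, 2820, 3229, 2575 and 3468 in the EtOH-fed mice, 0.81 ± 0.11, adjusted p = 0.000555) and *Foxa1* fell (962, 879, 797 and 765 in the pair-fed mice and 510, 560, 524, 522 and 676 in the EtOH-fed mice, -0.61 ± 0.12, adjusted p = 0.00678).

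Of 41 cell cycle and DNA replication genes, 12 fell and 1 rose (median -0.43), the last a share below that of all genes. The count of genes lower was 6 without pair-fed mouse 4. *Tk1*, the thymidine kinase of S phase, was at 1671, 1074, 1283 and 1525 in the pair-fed mice and 557, 353, 391, 421 and 465 in the EtOH-fed mice (-1.66 ± 0.16, adjusted p = 4.17e-05). *Mcm6* and *Mcm5*, subunits of the replicative helicase, fell, with log2 fold changes of -1.52 ± 0.22 (adjusted p = 0.000768) and -1.63 ± 0.28 (adjusted p = 0.00243), as did the DNA ligase gene *Lig1* (-1.34 ± 0.19, adjusted p = 0.000859). No EtOH-fed value of these 4 genes reached the pair-fed range. *Cdkn1a*, the p21 inhibitor of cyclin-dependent kinases, was the member that rose. It was at 277, 216, 170 and 375 in the pair-fed mice and 1062, 411, 486, 379 and 439 in the EtOH-fed mice (1.04 ± 0.29, adjusted p = 0.0325), with EtOH-fed mouse 1 well above the others, and the call was lost without pair-fed mouse 1, 2 or 3 or EtOH-fed mouse 3 (adjusted p up to 0.0905). The count of genes higher was thus 0 without pair-fed mouse 1, 2 or 3 or EtOH-fed mouse 3, and it was 2 without EtOH-fed mouse 4. None of 9 oncofetal liver genes was called (median -0.18), and 1 was lower without EtOH-fed mouse 5.

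Respiratory chain subunits had none of 74 genes higher and 3 lower, a share below that of all genes (median -0.19). This count hung on single mice, being 18 without EtOH-fed mouse 5, 5 without pair-fed mouse 1, 1 without pair-fed mouse 3, and 0 without pair-fed mouse 2 or 4 or EtOH-fed mouse 1, 2 or 4. The 3 genes were *Ndufs3* of complex I (-0.33 ± 0.09, adjusted p = 0.0336), *Cox8a* of complex IV (-0.40 ± 0.12, adjusted p = 0.0403) and *Atp5mf* of the ATP synthase (-0.50 ± 0.16, adjusted p = 0.049994). Their calls were lost without pair-fed mouse 1, 2, 3 or 4 or EtOH-fed mouse 1, 2 or 4 (adjusted p up to 0.0926), without pair-fed mouse 2 or 4 or EtOH-fed mouse 1, 2, 3 or 4 (adjusted p up to 0.115) and without pair-fed mouse 2, 3 or 4 or EtOH-fed mouse 1, 2, 3 or 4 (adjusted p up to 0.141). Cytosolic ribosomal protein genes had none of 79 called (median -0.10), and 8 lower without EtOH-fed mouse 5. The ribosomal genes with the lowest p were *Rps29* (-0.55 ± 0.20, adjusted p = 0.0885) and *Rpl21* (-0.48 ± 0.19, adjusted p = 0.107). Short transcripts leaned lower: among the protein-coding genes with the fewest exon bases (204 to 2490) the median log2 fold change was -0.08, with 5.80% of genes higher and 9.38% lower, compared with medians of 0.01 to 0.02 in the 4 groups of longer genes. Many respiratory and ribosomal genes are short, and the part of transcript length in their values was not tested.

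None of 9 pancreatic acinar, red blood cell and mesothelial markers was called (median -0.07). *Xist*, which silences an X chromosome in female cells, was between 17186 and 30379 scaled reads in all 9 mice. The Y-linked genes *Ddx3y* and *Eif2s3y* were at most 47 scaled reads in every mouse, with 35, 40, 47 and 30 in the pair-fed mice and 6, 2, 12, 7 and 14 in the EtOH-fed mice for *Ddx3y* (-2.27 ± 0.52, adjusted p = 0.0132, and 0.137 with all 4 groups in the fit). For *Eif2s3y* the change was -1.84 ± 0.53 (adjusted p = 0.0378), with the call lost without pair-fed mouse 1, 2, 3 or 4 or EtOH-fed mouse 1, 2, 4 or 5 (adjusted p up to 0.086). The median log2 fold change of these 3 genes was -1.84, and the count of genes lower was 1 without any 1 mouse other than EtOH-fed mouse 3. Since the labels give all mice as female, the Y-linked differences were not read as a response of these genes to ethanol. Where their few reads came from, and why they differed between the diet groups, was not tested.

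Among all genes that met the naming rule, several with large changes lay outside these lists. That rule admitted only called genes whose groups did not overlap, so the lack of overlap is no separate result here. *Tubb2a*, a beta tubulin, was at 910, 776, 808 and 903 in the pair-fed mice and 4061, 4365, 4912, 2991 and 5894 in the EtOH-fed mice (2.35 ± 0.16, adjusted p = 3.58e-06). *H1f2*, a linker histone gene, was at 928, 1272, 1482 and 1545 in the pair-fed mice and 5373, 8218, 4486, 6769 and 6410 in the EtOH-fed mice (2.25 ± 0.18, adjusted p = 1.39e-05). Every EtOH-fed mouse had a level far beyond the pair-fed mice for both. *Cyb5r1*, a cytochrome b5 reductase, rose by 2.14 ± 0.17 (adjusted p = 1.39e-05). *Fibin*, a secreted factor first described in the fin bud, rose from a low level (35, 18, 35 and 30 in the pair-fed mice and 161, 305, 249, 423 and 233 in the EtOH-fed mice, 3.15 ± 0.29, adjusted p = 3.45e-05). The MAP kinase phosphatase gene *Dusp8* and the phosphate carrier gene *Slc34a2* rose by 3.19 ± 0.48 (adjusted p = 0.00109) and 2.55 ± 0.36 (adjusted p = 0.000742), with the *Dusp8* call lost with voom on estimated reads (adjusted p = 0.0757). *Gm19619*, a long noncoding RNA, was at 17, 79, 83 and 74 in the pair-fed mice and 247, 395, 332, 512 and 423 in the EtOH-fed mice (2.76 ± 0.40, adjusted p = 0.000829), and its pair-fed mouse 1 value rests on few reads.

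The largest decrease was that of *Gm32468*, a long noncoding RNA (chromosome 10, 93084206 to 93093727, plus strand). It was at 415, 736, 206 and 504 in the pair-fed mice and 7, 0, 7, 0 and 5 in the EtOH-fed mice (-7.01 ± 0.69, adjusted p = 5.37e-05). Since EtOH-fed mice 2 and 4 were at 0, the size of the fitted fold depends on the pseudocount. *Ces3b*, a carboxylesterase of the endoplasmic reticulum, was at 15720, 12580, 10735 and 14292 in the pair-fed mice and 1963, 1511, 1764, 1384 and 3694 in the EtOH-fed mice (-2.77 ± 0.23, adjusted p = 1.51e-05). *Nxpe2*, of unclear function, was at 1371, 1211, 1115 and 888 in the pair-fed mice and 252, 229, 262, 254 and 286 in the EtOH-fed mice (-2.14 ± 0.14, adjusted p = 2.54e-06). The 5 EtOH-fed values of *Nxpe2* were tightly grouped below all pair-fed ones. *A1bg*, a secreted immunoglobulin superfamily protein, was at 2391, 8363, 6263 and 3626 in the pair-fed mice and 934, 294, 92, 355 and 510 in the EtOH-fed mice (-3.76 ± 0.52, adjusted p = 0.000689). *Sema5b*, a semaphorin, *Chrna4*, a nicotinic receptor subunit, and *Ugt2b37*, a glucuronosyltransferase, fell, with log2 fold changes of -3.42 ± 0.33 (adjusted p = 3.98e-05), -3.32 ± 0.52 (adjusted p = 0.00142) and -2.96 ± 0.48 (adjusted p = 0.00181). *Serpina4-ps1*, an annotated pseudogene with serpin relatives nearby, fell (-4.27 ± 0.79, adjusted p = 0.00397), a value that its paralogs make uncertain. Noncoding transcripts *9030619P08Rik*, *1810008I18Rik* and *AC127342.1* fell, with log2 fold changes of -1.83 ± 0.15 (adjusted p = 1.39e-05), -1.49 ± 0.12 (adjusted p = 1.39e-05) and -2.67 ± 0.45 (adjusted p = 0.00226). All EtOH-fed values lay below all pair-fed values for the genes of this paragraph, as the naming rule required.

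The WT response was then compared with that of the *Apoe* KO mice (4 EtOH-fed, 5 pair-fed), with a test of the difference between genotypes over all 18 mice. A positive difference means that the ethanol effect was more positive in the KO mice. The response differed at an adjusted p under 0.05 for 428 of 15052 genes (2.84%), 392 with a positive and 36 with a negative difference, and 147 of these were among the genes called in WT. With median-of-ratios size factors in place of the deposited scale, 294 differences were positive and 84 negative. The number of positive differences fell to 157 without pair-fed WT mouse 4, 206 without EtOH-fed KO mouse 4, 208 without EtOH-fed WT mouse 1, 227 without pair-fed WT mouse 2, 229 without EtOH-fed KO mouse 5 and 246 without pair-fed KO mouse 3. The number of negative ones was 10 without pair-fed WT mouse 4, 14 without pair-fed WT mouse 2, 20 without EtOH-fed WT mouse 1 or pair-fed KO mouse 1 or 3, 23 without EtOH-fed KO mouse 5 and 55 without pair-fed WT mouse 3. *Pltp* had the clearest difference, of 2.47 ± 0.20 (adjusted p = 1.07e-06). Its KO values were 713, 777, 708, 1112 and 1025 in the pair-fed and 1298, 919, 1101 and 1146 in the EtOH-fed KO mice, so that it fell in WT liver while the KO means were 867 (pair-fed) and 1116 (EtOH-fed). *Acss2* had a difference of 1.11 ± 0.19 (adjusted p = 0.00571), with a smaller decrease in the KO mice.

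Several macrophage and antigen presentation genes that fell in WT liver gave positive differences. The WT response enters each difference with a minus sign, which favours that direction for genes that fell. Of the list members, 17 of 25 pan-myeloid genes, 5 of 16 Kupffer cell markers, 7 of 21 antigen presentation genes and 7 of 49 interferon-stimulated genes had a difference that passed the test, compared with 2.84% of all genes. *Cd74* was at 2195, 1428, 1703, 2689 and 1800 in the pair-fed and 2642, 3339, 6624 and 3672 in the EtOH-fed KO mice, and the difference was 1.77 ± 0.31 (adjusted p = 0.00571). *Clec4f* and *C1qb* had differences of 1.67 ± 0.28 (adjusted p = 0.00478) and 1.76 ± 0.28 (adjusted p = 0.00403). *Csf1r*, *Fcgr1* and *Plac8* had 1.39 ± 0.29 (adjusted p = 0.0116), 2.01 ± 0.33 (adjusted p = 0.00443) and 1.98 ± 0.31 (adjusted p = 0.00329). *Mpeg1* and *Aif1* differed by 1.25 ± 0.23 (adjusted p = 0.00712) and 1.63 ± 0.42 (adjusted p = 0.0403), with KO means that were close between diets. Of 51 matrix genes, of which 4 were higher and 3 lower in WT liver, 16 had a difference that passed. *Timp1* was at 23, 11, 28, 38 and 29 in the pair-fed and 37, 93, 229 and 158 in the EtOH-fed KO mice, a difference of 3.88 ± 0.72 (adjusted p = 0.00714).

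Metabolic genes differed in both directions. *Phgdh* was at 99, 31, 45, 81 and 42 in the pair-fed and 82, 210, 426 and 196 in the EtOH-fed KO mice, a difference of 3.57 ± 0.64 (adjusted p = 0.00627). *Plin2*, which did not pass the test in WT liver, was at 17680, 15270, 22173, 22332 and 13342 in the pair-fed and 37337, 55765, 39444 and 34632 in the EtOH-fed KO mice, and its difference was 1.04 ± 0.23 (adjusted p = 0.0189). For *Plin2* all 4 EtOH-fed KO values lay above all pair-fed KO values. Negative differences were those of *Cyp2b10*, *Ppp1r3c*, *Krt23* and *Srebf1* among the named genes. *Cyp2b10* was at 455, 38, 120, 333 and 27 in the pair-fed and 125, 449, 512 and 907 in the EtOH-fed KO mice, a difference of -4.21 ± 1.06 (adjusted p = 0.0344), and the KO diet groups overlapped. For *Ppp1r3c* and *Krt23* the differences were -1.63 ± 0.35 (adjusted p = 0.0153) and -2.33 ± 0.57 (adjusted p = 0.0307). *Srebf1* had a difference of -1.08 ± 0.29 (adjusted p = 0.0469), with the larger decrease in the KO mice. Genotype and diet effects on levels were not separated further, and the KO mice are described here only through these differences.

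**Figure D5:**
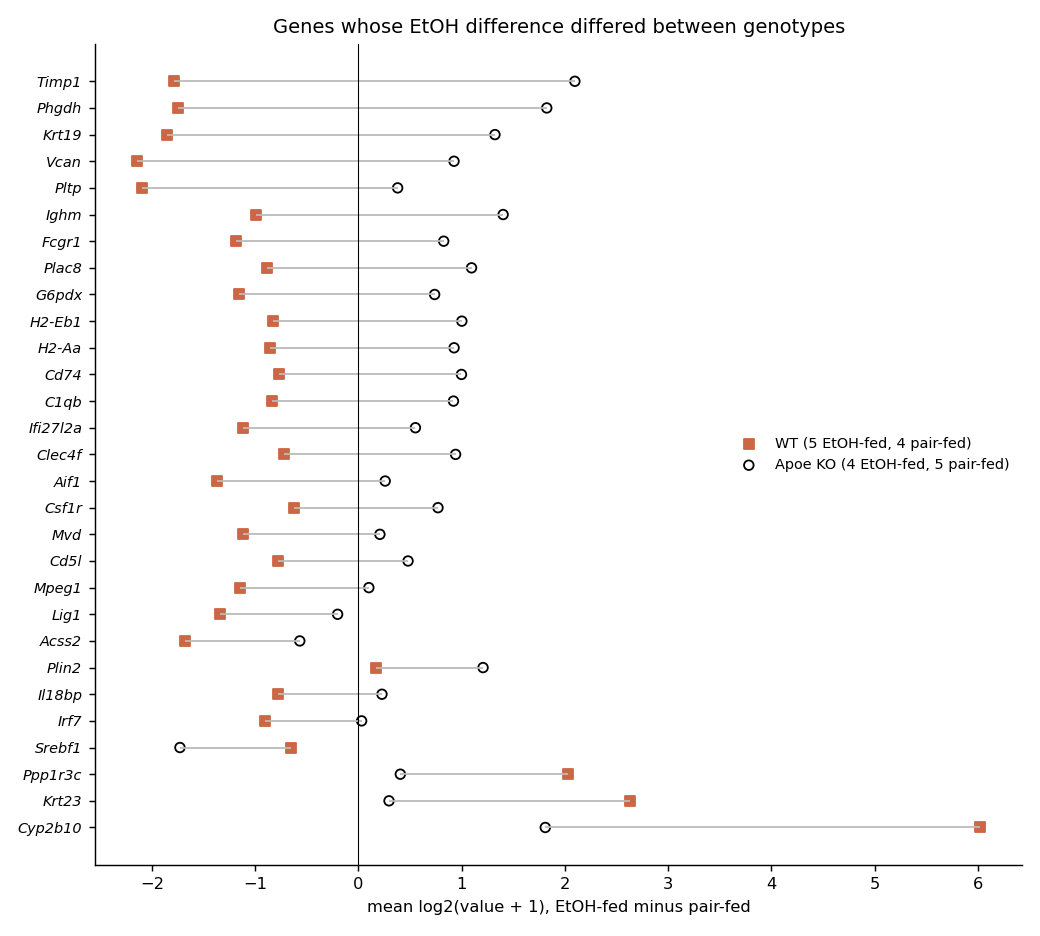
EtOH-fed minus pair-fed mean log2(value + 1) in WT mice (squares, 5 and 4 mice) and *Apoe* KO mice (open circles, 4 and 5 mice) for the 29 named genes whose response differed between genotypes, without error bars. *Timp1* goes from -1.78 in WT to 2.10 in KO, and for *Cyp2b10* the WT value is 6.02 and the KO value 1.81.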

How the data were processed

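PolyA-selected RNA of whole liver was sequenced in 9 WT mice. Per the labels, reads were processed with FastQC, Trimmomatic, HISAT2, SAMtools, featureCounts and DESeq2 on GRCm38, with versions not given in the sources used here. The deposited values are a signal in whole numbers with nearly equal totals, and how the authors scaled them is not given in the sources used here. From the totals and the spacing of low values, which resolved a step in 7 of the 9 mice, they were read as read counts divided by a factor per mouse and rounded, and no count test on raw reads was run. The deposited table also holds the authors' own fold changes, p-values and ranks, which were not used.

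The table's 15247 lines gave 15052 genes, since 56 identifiers stood on more than 1 line with identical values. Of 1329 genes without a symbol, 1322 were named from GENCODE mouse release 21, which placed 15040 genes. Groups came from the labels. EtOH-fed and pair-fed WT mice were compared with limma 3.58.1 (R 4.3.3) with an intensity trend on log2(value + 1), with Benjamini-Hochberg adjustment and no filter, and a call is an adjusted p under 0.05. The genotype difference was the interaction term over all 18 mice. The main fit of the WT mice was tested on simulated data, and the genotype fit and the alternatives were not. Tables and plots used Python 3.11.15, pandas 2.3.3, numpy 2.4.6 and matplotlib 3.10.9.

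The gene lists and named genes were chosen with earlier results of these data known. Named genes were the 12 with the largest change and the 6 with the lowest p in each direction among called, non-overlapping genes with a mean of at least 100, up to 4 called members of each list per direction by lowest p (or the 2 with the lowest p where none was called), the defining genes of a list where its level was needed, and *Apoe*. Alternatives were another scaling, a mean of at least 50, pseudocounts of 0.1 and 10, a fit of all 4 groups, sample weights, no trend, a replicate block, voom on estimated reads, and leaving out each mouse. The fit of mice 1 to 4 without the block, the lists without pair-fed mouse 1 and further principal component settings were chosen after seeing the data. Values of a few genes that met the naming rule are not reported here.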

Additional observations from a re-analysis of the deposited data

Results flagged for a closer look

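For each named gene and the first and second principal components, each diet group of 4 or 5 mice was tested (412 groups). The distance from the highest or lowest mouse to its neighbour was divided by the range of the group. This quotient, given in brackets, passed Dixon's 95% critical value for the group's size in 21 groups, 11 of pair-fed and 10 of EtOH-fed mice, where chance alone gives about 5% of groups. The number of flags was thus about what chance alone gives, and no single flag shows that a mouse differed. Among the pair-fed mice, mouse 1 stood apart upward for *Sgk1* (0.852), *Igfbp1* (0.877) and *9030619P08Rik* (0.851) and downward for *Gm19619* (0.926) and for the score on the first component (0.938). Pair-fed mouse 2 stood apart upward for *Lbp* (0.875) and *Cxcl9* (0.904) and downward for *Slco1a1* (0.871) and *AC127342.1* (0.849). Pair-fed mouse 3 was far below the others for *Socs2* (0.965) and pair-fed mouse 4 for *Cth* (0.897).

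Among the EtOH-fed mice, mouse 1 was low for *Mthfd2* (0.855) and high for *Cth* (0.743) and *Cdkn1a* (0.759). EtOH-fed mouse 3 was high for *Cyp2c50* (0.85) and *Abcg5* (0.746) and low for *Mbl2* (0.838). EtOH-fed mouse 4 was high for *Hspa5* (0.838), *Vcan* (0.892) and *1810008I18Rik* (0.735), and EtOH-fed mouse 5 low for *Gldc* (0.776).

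For 29 named genes the ethanol effect differed between genotypes by the interaction term of limma, 25 with a positive and 4 with a negative difference (log2, *Apoe* KO minus WT). Genes named for a low p among those that fell in WT liver enter with that fall subtracted, so positive differences were favoured. Among the 29, genes of the complement, macrophage, myeloid, antigen presentation and interferon lists had positive differences. These were *C1qb* at 1.76, *Irf7* at 0.93, *Ifi27l2a* at 1.67, *H2-Aa* at 1.78, *Cd74* at 1.77, *H2-Eb1* at 1.83, *Il18bp* at 1.01, *Clec4f* at 1.67, *Cd5l* at 1.26, *Plac8* at 1.98, *Vcan* at 3.07, *Mpeg1* at 1.25, *Aif1* at 1.63, *Fcgr1* at 2.01, and *Csf1r* at 1.39, with the lymphocyte marker *Ighm* at 2.4. Other named genes of these lists, among them *F11*, *Mbl2*, *Igtp* and *Rtp4*, did not pass. Matrix, duct and replication genes were *Timp1* at 3.88, *Krt19* at 3.18, *Lig1* at 1.14 and, with a negative difference, *Krt23* at -2.33. The metabolic genes with a positive difference were *Phgdh* at 3.57, *G6pdx* at 1.9, *Acss2* at 1.11, *Mvd* at 1.32, *Plin2* at 1.04 and *Pltp* at 2.47. Negative metabolic differences were found for *Cyp2b10* at -4.21, *Srebf1* at -1.08 and *Ppp1r3c* at -1.63.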

How the results depend on the processing

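The 931 genes higher and 981 lower stayed within 1.5 times those counts except as follows. Without an intensity trend 613 were higher. Leaving out single mice gave 591 to 871 higher and 595 to 1033 lower. In the fit with replicate numbers as a block (mice 1 to 4), 599 were higher and 756 lower, compared with 871 and 1033 for these mice without the block. The labels do not say that a mouse number marks a pair, so the numbers were not read as pairs. Deviations of same-numbered mice of the 2 diets had a mean r of -0.0481 (range -0.217 to 0.1, 4 pairs). For mice of unlike number it was 0.0119 (range -0.34 to 0.345, 16 pairs). So few pairs cannot decide whether mice were paired. In voom on estimated reads, the scaled values of EtOH-fed mice 2 and 5, whose depth was not resolved, were taken as reads. That fit gave 793 higher and 967 lower, and 1659 of the 1912 genes called were called there too. Of these 1912, 1275 (66.7%) were called without an intensity trend, 1213 (63.4%) with the block, and between 1135 (59.4%, without pair-fed mouse 2) and 1644 (86.0%, without EtOH-fed mouse 5) without single mice. Of 182 named genes that were called, 139 kept the call in all 19 alternatives, 147 without each mouse and 142 in the others, and none changed direction. The 8 that lost it only with all mice in the fit were *Atf3*, *Fgf21*, *Col13a1* and *Dusp8* (voom), *Cyp2b9*, *Slco1a1* and *Ddx3y* (all 4 groups in the fit) and *Nr4a1* (both). For genotype differences, median-of-ratios size factors gave 84 negative in place of 36, and leaving out single mice gave 157 to 506 positive and 10 to 55 negative. The first principal component held 34.37% of the variance with all genes, 60.54% with genes of a mean of at least 100, and 45.57% without pair-fed mouse 1. The cause of these shifts was not tested. Depth limits the low-level genes most, since 1 read in pair-fed mouse 1 was worth 5.76 scaled reads.

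Genes that did not pass the test changed sign as follows, in log2 fold change. *Chac1* was at 0.2732 with sample weights, 0.4354 for mice 1 to 4 with and without the block and without EtOH-fed mouse 5, 0.0159 with voom, 0.0047 without pair-fed mouse 1 and 0.1268 without EtOH-fed mouse 4, and its lowest value without 1 mouse was -0.4826 (EtOH-fed mouse 2). *Cpt1a* was at 0.0051 with median-of-ratios size factors, 0.0857 with sample weights, 0.1235 for mice 1 to 4 with and without the block and without EtOH-fed mouse 5, 0.0447 without pair-fed mouse 3 and 0.0373 without EtOH-fed mouse 3, and its lowest was -0.1013 without EtOH-fed mouse 2. *Aldh2* was at -0.0393 without pair-fed mouse 4 and -0.0014 without EtOH-fed mouse 3, with a highest value of 0.084 without pair-fed mouse 3. *Glul* was between -0.1989 without EtOH-fed mouse 5 and 0.0069 without EtOH-fed mouse 2. *Apoe* was at 0.0328 without pair-fed mouse 2, 0.0317 without EtOH-fed mouse 2 and 0.0254 without EtOH-fed mouse 4, and at -0.0617 without EtOH-fed mouse 5. *Xist* was at 0.0334 and 0.1128 without pair-fed mouse 2 and 4, and at 0.0493 and 0.0362 without EtOH-fed mouse 1 and 2, with a lowest value of -0.152 without pair-fed mouse 3.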

Other observations

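Of 333 lincRNA genes tested, 33 fell and 5 rose. Genes with a mean under 50 scaled reads leaned lower whatever their type (there 8 lincRNA genes fell and none rose, and 91 other genes fell and 20 rose). At a mean of at least 50, 25 of 166 lincRNA genes fell and 5 rose, compared with 857 and 906 of 12232 other genes. Of 340 genes annotated as antisense 19 fell and 3 rose, of 539 processed pseudogenes 16 fell and 13 rose, and of 13010 protein-coding genes 866 fell and 899 rose. These splits, and the part of level in them, were not tested. The lincRNA genes include *Gm32468*, the largest decrease of the named genes (-7.01 ± 0.69 in log2 fold change), but also *Gm19619*, which rose (2.76 ± 0.40). Whether the counting used strand is not given in the sources used here, so reads of antisense genes may include reads of the genes they overlap.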
